A study of Mus musculus with 36 samples.

Results

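Integrins are the adhesion receptors that let a natural killer (NK) cell hold on to a target cell, a vessel wall or the matrix of a tissue, and the 10 subunit genes described here are subunits commonly followed in mouse NK cells: Itgb2, Itgal, Itgam and Itgax, Itgb1, Itga4, Itga2 and Itga1, Itgb7 and Itgae. They were taken by gene symbol from 4 deposited tables of RNA levels. All 10 symbols were present in every table, out of 32940 rows in the table of sorted subsets and 56923 rows in each of the other tables.

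RNA was sequenced from 36 samples in 12 groups of 3 biological replicates, all of C57BL/6 (B6) mouse NK cells. The first table holds splenic CD27-CD11b+ NK cells of wild-type (WT, B2m+/+) and B2m-/- (KO) mice, sorted by inhibitory receptors into TP (Ly49C, Ly49I and NKG2A all present), SP (Ly49I only) and TN (none of the 3) cells. B2m encodes the light chain of MHC class I, the ligand of these receptors. The second table holds NK cells sorted from WT splenocytes that had been given either vehicle or the calcium ionophore ionomycin for 22 h. The next table holds WT NK cells from splenocytes kept for 48 h in medium, or on plates coated with antibodies against a pair of activating receptors, NKp46 with NKG2D or NKp46 with DNAM-1. The last holds CD27-CD11b+ NK cells of WT mice from subcutaneous MC38 B2m-/- tumours at day 10, where MC38 is a colon carcinoma line. That table has no control group, and its column names carry "B2MKO" and "SP", which the sample titles do not explain. The sources used here give neither the ages of the mice nor whether the TP, SP and TN cells of a replicate number came from 1 mouse. The p-values below measure the spread between the deposited biological replicates.

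An integrin is a pair of an alpha and a beta subunit. The beta2 chain, Itgb2 (CD18), pairs with Itgal (CD11a) to form LFA-1, with Itgam (CD11b) to form Mac-1, with Itgax (CD11c), and with Itgad. LFA-1 binds ICAM proteins and is the main adhesion receptor of the NK cell killing contact. The beta1 chain, Itgb1 (CD29), pairs with Itga4 (CD49d) in VLA-4, a receptor for VCAM-1 and fibronectin, and with Itga1 (CD49a) or Itga2 (CD49b) in receptors for collagen. The beta7 chain, Itgb7, pairs with Itga4 in the receptor that guides lymphocytes to gut vessels, or with Itgae (CD103), a receptor for E-cadherin. CD49b is a classical marker of circulating mouse NK cells, and CD49a a marker of tissue-resident NK cells and type 1 innate lymphoid cells. CD11b protein was part of the sort for the subset and tumour samples, so the presence of Itgam RNA there is set by the gate.

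Values are in TPM (transcripts scaled to a fixed sum, a level that is divided by gene length and scaled within a library), so levels of different genes can be set side by side. Groups were compared only within a table, on log2(TPM + 1), with limma across all genes that averaged 1 TPM or more. A gene was called when its Benjamini-Hochberg adjusted p was under 0.05, and fold changes are on the log2(TPM + 1) scale, which understates the change of low genes such as Itga1. Replicate values are listed in the order of replicates 1, 2 and 3, and a mean is followed by its SD. The depth of the libraries is unknown from TPM, so no counting error can be given. In bulk RNA, fewer cells of a type and less RNA per cell cannot be told apart.

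The libraries followed their labels. B2m was listed at 2915 to 3420 TPM in WT and 73.9 to 128 TPM in KO subset libraries, and genes above 0 numbered 12290 to 14501 per subset library. Summed over 8 NK marker genes, the level was 17887 to 21417 TPM in the subset libraries. The KO TP libraries stood apart in markers of other cells: the sum of 7 neutrophil markers was 61.0, 105 and 218 TPM there, with 7 of 7 above 0, against 0 to 5.85 TPM in the other subset libraries, where S100a8 and S100a9 were at 0 in all WT libraries. The sum of B and plasma cell markers was 688, 403 and 593 TPM in KO TP and 167 to 337 TPM elsewhere. Of 2 tested T cell markers, Cd3g was called higher in KO TP than in WT TP cells (9.49 and 1.22 TPM). These libraries enter every contrast with KO TP cells, also those against KO SP and KO TN cells. The part of RNA from other cells in those contrasts was not tested.

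The beta2 genes were the most abundant integrin genes of splenic NK cells. Itgb2 (ENSMUSG00000000290) was the highest member in all 6 sorted groups, and its partner Itgal (ENSMUSG00000030830), the alpha chain of LFA-1, came next in each, with no overlap between them. In WT TP cells Itgb2 was at 2033, 1934 and 1800 TPM and Itgal at 1225, 1255 and 1139 TPM. The remaining members reached at most 876 TPM in any subset library.

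In WT mice, 4 of the 10 members differed between TN and TP cells, where 1.31% of all tested genes were called. Itgax rose from TP to TN, and Itgb2, Itgb7 and Itga1 fell. The values of 7 members did not overlap between the groups, as was so for 14.6% of all tested genes. The median difference over the members was -0.10 on the log2 scale, against -0.01 over all tested genes. With only the WT TN and TP libraries in the fit, 1 member was called, Itgax.

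Itgax (ENSMUSG00000030789), the CD11c chain, was lowest in TP cells of WT mice (547, 457 and 475 TPM), intermediate in SP (712, 645 and 565) and highest in TN (857, 863 and 876). Every SP library was above every TP library and below every TN library. TN was 1.76-fold above TP (log2 difference 0.81 ± 0.09 SE, adjusted p = 5.32e-05, limma), and this call held in 13 of 13 alternative analyses. TN was also above SP by 0.44 ± 0.09 on the log2 scale (adjusted p = 0.0498), while the difference of 0.37 between SP and TP was not called (adjusted p = 0.180). The call against SP held in 5 of 13 alternatives and was lost, among others, when WT TN replicate 1, 2 or 3 or WT SP replicate 2 or 3 was left out. Itgax thereby went from the member ranked 7 in WT TP cells to the member ranked 3 in WT TN cells.

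**Figure D1:**
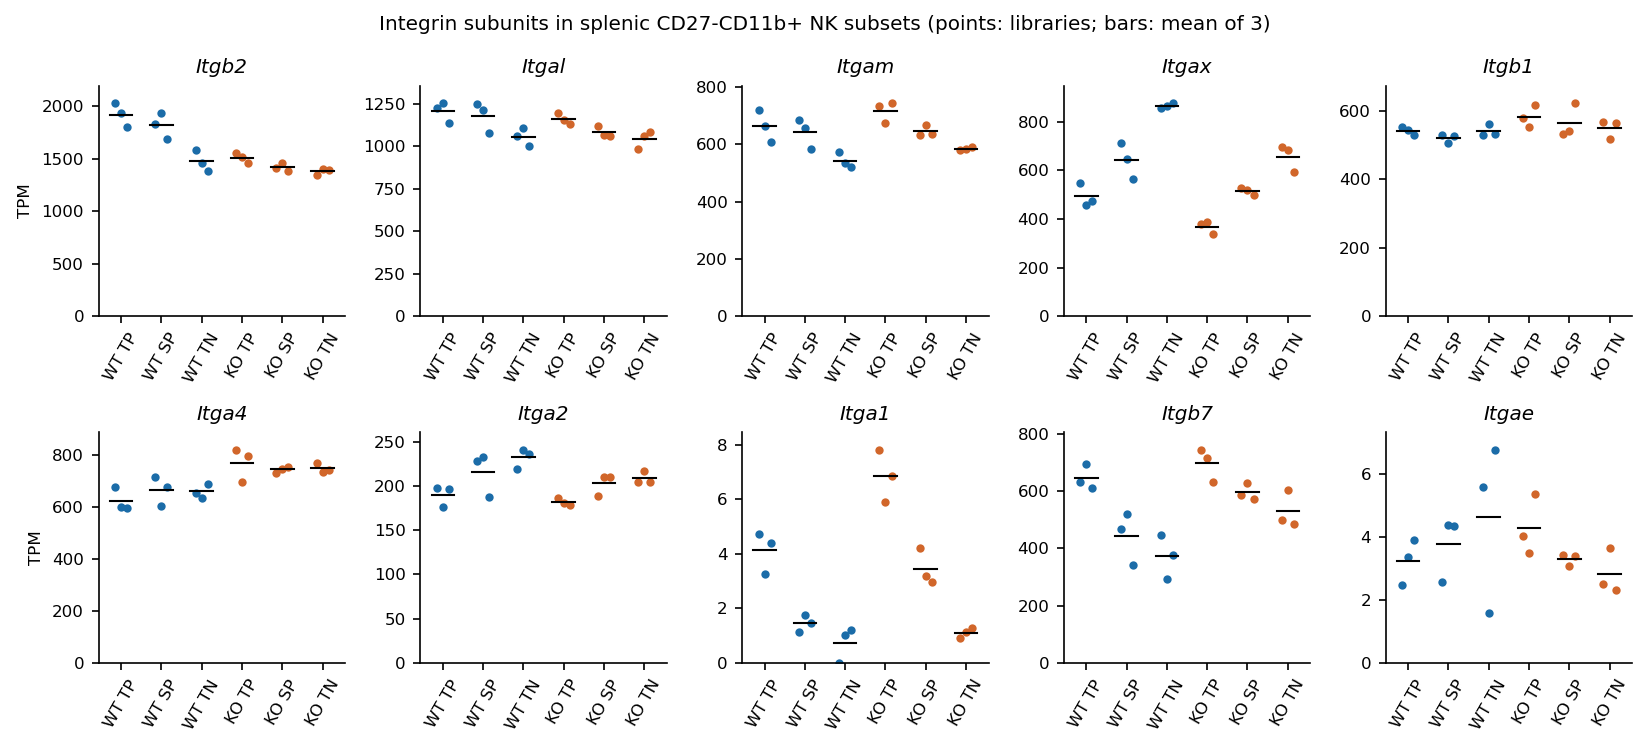
Levels of the integrin genes (TPM, vertical axes) in the 6 sorted groups of splenic NK cells; each point is 1 library and each bar the mean of 3. The WT TN libraries for Itgax, at 857 to 876 TPM, lie above all other subset libraries, and the Itgb2 libraries of WT TP and SP cells lie above those of the other groups.

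The beta chain moved the other way from Itgax. Itgb2 was at 1829, 1940 and 1693 TPM in SP cells of WT mice, but at 1584, 1461 and 1385 TPM in their TN cells, so each TN library was below every TP and SP library. TN was 1.30-fold below TP (log2 -0.38 ± 0.06 SE, adjusted p = 0.00404, limma). Against SP the difference of -0.30 was not called (adjusted p = 0.0539). Of the other alpha chains that pair with Itgb2, Itgam and Itgal went with it in sign but were not called. Itgam (ENSMUSG00000030786) was at 719, 663 and 608 TPM in TP and 573, 533 and 520 in TN cells (log2 -0.29, adjusted p = 0.0738). Itgal was 0.19 lower on the log2 scale (-0.19, adjusted p = 0.203). Neither pair of groups overlapped. Against SP, Itgam differed by -0.24 (adjusted p = 0.196) and Itgal by -0.16 (adjusted p = 0.350).

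The share of Itgax in the pool of beta2 alpha-chain RNA (Itgal, Itgam, Itgax and Itgad) was computed within each library, where scaling between libraries plays no part. It was 20.7% ± 1.40 (SD, n = 3) in TP cells of WT mice, then 25.8% ± 0.806 in SP, then 34.6% ± 1.36 in TN. In TN cells Itgax RNA exceeded that of Itgam in every library (ratio 1.60 ± 0.0966), and in TP cells it was below it in every library (0.743 ± 0.0489). In SP cells the levels of both genes were close (0.996 ± 0.0373).

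Itgam and Itgax lie next to each other on chromosome 7, followed by Itgad. Between TN and TP cells their RNA differed in opposite directions in sign, but only the Itgax difference was called. The bases before their annotated starts are shown because the genes are neighbours with unlike patterns. They come from RefSeq's annotation of GRCm38.p6, in which 7 of the 10 members had a window. That of Itgb7 held no bases before the annotated start and was not searched. The bases below are read 5′ to 3′ on the plus strand (chr7:128062390-128062639 for Itgam and chr7:128129300-128129525 for Itgax). Capitals mark matches, on either strand, to GGGCGG (the GC box bound by Sp1) or GAGGAA (a core bound by PU.1-type ETS factors).
Itgam: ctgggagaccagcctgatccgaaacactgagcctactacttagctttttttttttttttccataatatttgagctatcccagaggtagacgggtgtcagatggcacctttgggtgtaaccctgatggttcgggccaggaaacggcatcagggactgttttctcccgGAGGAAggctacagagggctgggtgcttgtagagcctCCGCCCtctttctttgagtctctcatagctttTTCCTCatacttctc
Itgax: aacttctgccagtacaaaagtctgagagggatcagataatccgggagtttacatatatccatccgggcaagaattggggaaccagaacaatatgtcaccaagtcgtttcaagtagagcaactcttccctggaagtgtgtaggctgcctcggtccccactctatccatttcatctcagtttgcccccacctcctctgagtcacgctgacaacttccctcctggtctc
The Itgam window held 1 GGGCGG and 2 GAGGAA, and the Itgax window, which is 226 bases long, held neither. TCACAC (a T-box site) and TGTGGT (a RUNX site) were also searched on both strands and matched in neither window. Among 27025 promoter windows of 250 bases, 32.9% held GGGCGG, 23.1% GAGGAA, 12.2% TCACAC and 14.2% TGTGGT. A match is a string of letters and not a measured binding site.

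Integrin genes outside the beta2 family split by subunit. Itgb7 (ENSMUSG00000001281) was at 631, 695 and 614 TPM in TP cells of WT mice, with 468, 521 and 344 in SP, then 448, 294 and 379 in TN. All TP libraries were above all SP and TN libraries, whereas SP and TN overlapped. TN was 1.75-fold below TP (log2 -0.81 ± 0.15 SE, adjusted p = 0.00844, limma), and the difference of -0.56 between SP and TP was not called (adjusted p = 0.229). Its partner Itga4 (ENSMUSG00000027009) did not share this pattern: it was at 675, 598 and 594 TPM in TP and 654, 635 and 689 in TN cells, and these overlapped. The ratio of Itgb7 to Itga4 was 1.04 in TP and 0.566 in TN cells.

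Itgb1 (ENSMUSG00000025809) was the steadiest member, with group means that spanned 0.16 on the log2 scale over the 6 groups. It was at 552, 544 and 527 TPM in WT TP and 529, 560 and 533 in WT TN cells (log2 difference 0.00, 95% interval -0.15 to 0.15). Its collagen-binding partners differed in level by well over 10-fold. Itga2 (ENSMUSG00000015533), the CD49b chain, was at 198, 176 and 197 TPM in TP cells of WT mice, then 229, 233 and 188 in SP, then 220, 241 and 236 in TN. TN libraries were above TP libraries without overlap, but the log2 difference of 0.29 was not called (adjusted p = 0.155).

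Itga1 (ENSMUSG00000042284), the CD49a chain, was low throughout and followed the receptors of the sort. In WT mice the TP libraries held 4.74, 3.24 and 4.40 TPM, the SP libraries 1.14, 1.74 and 1.45, the TN libraries 0, 1.00 and 1.20. All TP libraries were above all SP and TN libraries. TN was 3.10-fold below TP (log2 -1.63 ± 0.36 SE, adjusted p = 0.0326, limma), and the difference of -1.06 between SP and TP was not called (adjusted p = 0.428). The TN call held in 6 of 13 alternatives, and it was lost without WT TN replicate 1 or any of the 3 WT TP libraries. Itgae (ENSMUSG00000005947), the CD103 chain, was at 1.58 to 6.79 TPM over the 9 WT libraries, and its groups overlapped.

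Between the neighbouring subsets of WT mice fewer members moved. No member was called between SP and TP (0.191% of tested genes were called by limma), and 3 had an unadjusted p under 0.05. Between TN and SP 1 member was called, Itgax (0.383% of tested genes). The TN against TP comparison shares its libraries with both.

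The same order of subsets was seen for Itgax and Itga1 in B2m-/- mice. TN against TP gave 2 called members there, where 0.524% of tested genes were called. The groups did not overlap for 7 members, and for 13.2% of tested genes. Itgax was at 377, 388 and 336 TPM in TP cells of KO mice, then 527, 520 and 498 in SP, then 694, 683 and 591 in TN, again with no overlap between subsets. TN was 1.78-fold above TP (log2 0.84 ± 0.09 SE, adjusted p = 6.22e-05, limma), in 13 of 13 alternatives. The ratio of Itgax to Itgam was 0.514 ± 0.0622 in KO TP, 0.798 ± 0.0320 in SP and 1.12 ± 0.108 in TN cells.

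Itga1 was at 7.83, 5.92 and 6.85 TPM in TP cells of KO mice, then 4.23, 3.17 and 2.96 in SP, then 0.900, 1.12 and 1.28 in TN, and each subset was separate from the next. TN was 3.74-fold below TP (log2 -1.90 ± 0.36 SE, adjusted p = 0.0190, limma). That call held in 5 of 13 alternatives and was lost when any 1 of the 6 KO TP and KO TN libraries was left out. The members with an unadjusted p under 0.05 that were not called were Itgb7 (log2 -0.40, adjusted p = 0.534), Itgam (-0.29, 0.139), Itgal (-0.16, 0.702) and Itga2 (0.20, 0.733).

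Steps between neighbouring KO subsets were also small. Between SP and TP cells 1 member was called, where 0.200% of tested genes were: Itgax was higher in SP by 0.49 ± 0.09 on the log2 scale (adjusted p = 0.0331, limma). That call held in 4 of 13 alternatives and was lost without any 1 of the 6 libraries compared, and Itga1 differed by -0.82 (adjusted p = 1.00). No member was called by limma between TN and SP (0.0416% of tested genes), and 2 had an unadjusted p under 0.05, Itgax at 0.34 (adjusted p = 0.651) and Itga1 at -1.08 (adjusted p = 1.00).

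Itgb2 fell from TP to TN in WT mice, and in KO mice the difference was -0.13 (95% interval -0.26 to 0.01, adjusted p = 0.809). The test of that contrast between genotypes, the interaction of genotype with TN against TP, called no member by limma (0.0250% of tested genes). Itgb2 was the only member with an unadjusted p under 0.05 there (0.25, adjusted p = 0.697 by limma). For Itgax the interaction was 0.02, with a 95% interval of -0.25 to 0.30.

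**Figure D2:**
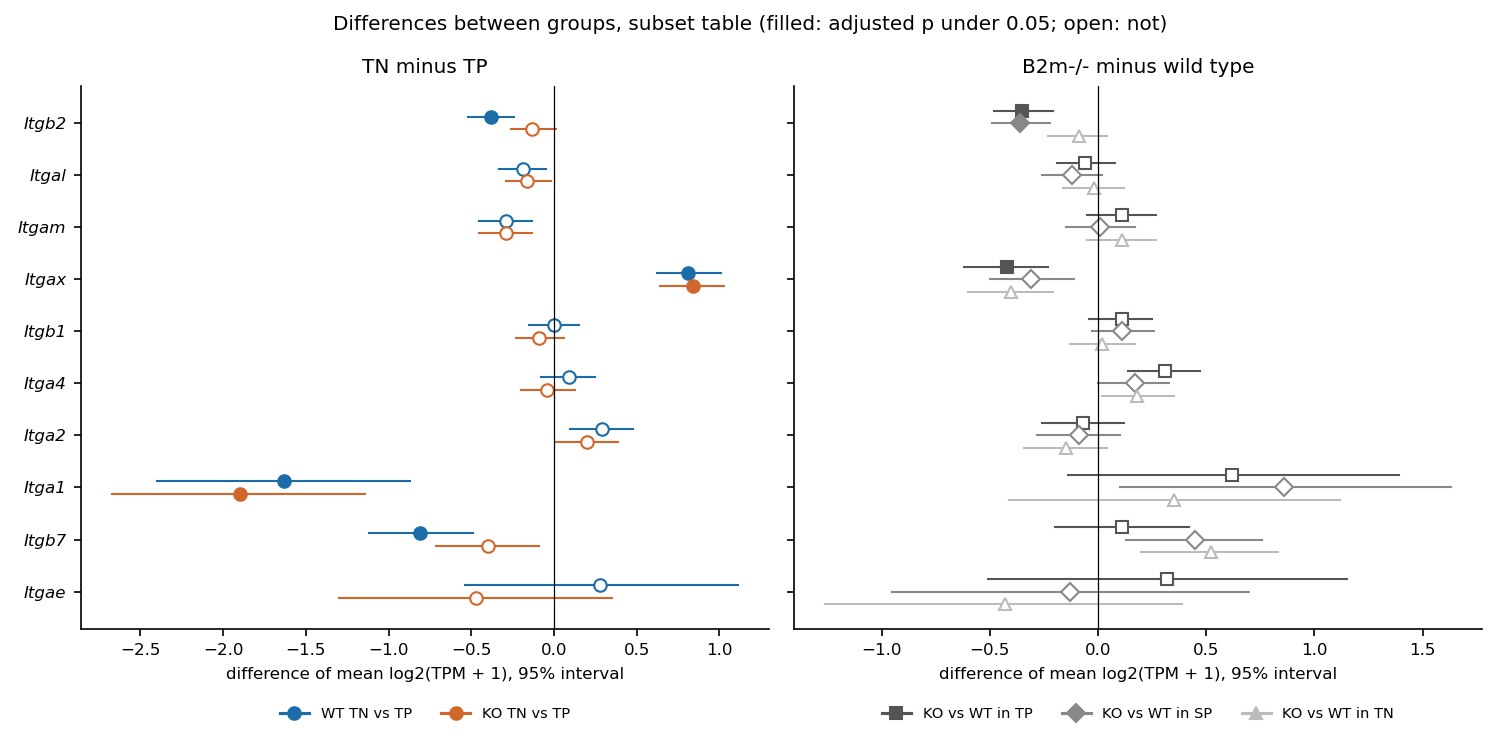
Differences of mean log2(TPM + 1) with 95% intervals for the 10 integrin genes, TN minus TP in each genotype (left) and B2m-/- minus wild type in each subset (right); filled symbols passed an adjusted p of 0.05. Itgax is to the right of 0 in both genotypes on the left and to the left of 0 in all 3 subsets on the right.

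Loss of B2m went with lower RNA of Itgb2 and Itgax in TP cells, and both were lower in sign in SP and TN cells too. In TP cells 2 members were called between KO and WT mice, where 1.59% of tested genes were called. The genotypes did not overlap for 4 members, and for 18.3% of tested genes. Itgb2 was at 1552, 1521 and 1461 TPM, below each of the WT TP libraries, and was 1.27-fold lower (log2 -0.35 ± 0.06 SE, adjusted p = 0.00786, limma). Itgax was also below every WT TP library and was 1.34-fold lower (log2 -0.42 ± 0.09 SE, adjusted p = 0.0249). The Itgb2 call held in 8 of 13 alternatives, and was lost under quantile scaling (adjusted p = 0.217) and without KO TP replicate 3 or WT TP replicate 1. The Itgax call held in 7 of 13, and was lost without KO TP replicate 1 or 3 or WT TP replicate 1 or 3. The KO TP libraries are those with the higher neutrophil and B cell marker sums given above. Neutrophils also express Itgb2 and Itgam, and the part of such RNA in the TP differences was not tested.

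In SP cells the Itgb2 difference was about as large as in TP cells. Itgb2 was at 1411, 1463 and 1386 TPM in KO SP cells, below all WT SP libraries and 1.28-fold lower (log2 -0.36 ± 0.06 SE, adjusted p = 0.00660, limma). It was the only called member of the 10 in SP cells (1.35% of tested genes were called), and the call held in 9 of 13 alternatives, being lost under quantile scaling (adjusted p = 0.113) and without WT SP replicate 2. Itgax was lower in sign (-0.31, adjusted p = 0.134) and did not overlap. Itgb7 (0.45, adjusted p = 0.193), Itga1 (0.86, 0.357) and Itga4 (0.17, 0.418) were higher in sign and were not called.

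In TN cells, which lack all 3 receptors of the sort, no member was called by limma between genotypes (0.716% of tested genes), and 3 had an unadjusted p under 0.05. Itgb2 was at 1349, 1408 and 1392 TPM in KO TN cells, which overlapped with WT TN (log2 -0.09, 95% interval -0.23 to 0.04). Itgax was lower in every KO library than in any WT library, by -0.40 on the log2 scale (95% interval -0.60 to -0.21, adjusted p = 0.0600). Itgb7 was at 500, 604 and 487 TPM in KO TN cells, above all WT TN libraries (0.52, adjusted p = 0.165).

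Itga4 was above WT in sign in all 3 KO subsets. It was at 821, 694 and 795 TPM in TP cells of KO mice, then 730, 747 and 755 in SP, then 767, 735 and 741 in TN, without overlap with WT in any subset. The differences of 0.31 (adjusted p = 0.0634), 0.17 (0.418) and 0.18 (0.405) were not called. Itgal, Itgam, Itgb1 and Itga2 were not called between genotypes in any subset. Their values in KO cells ran from 982 to 1196 TPM for Itgal, 580 to 744 for Itgam, 517 to 622 for Itgb1 and 178 to 217 for Itga2.

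**Figure D3:**
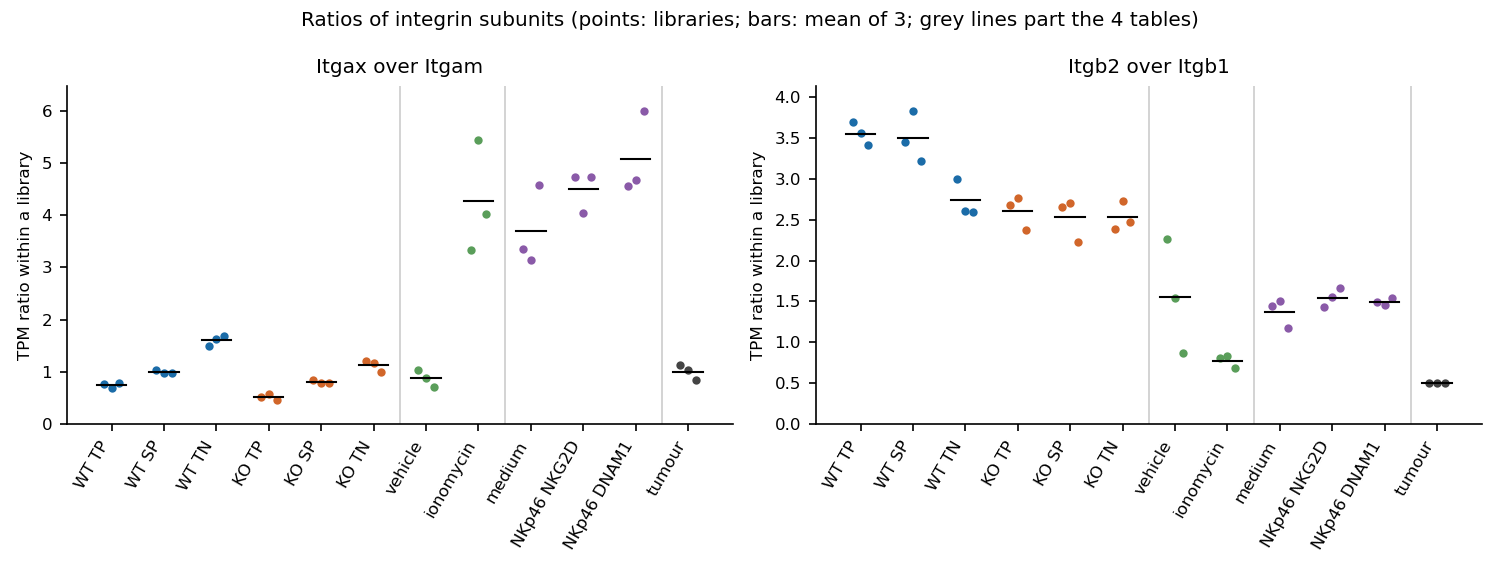
Ratios of integrin genes within each library (vertical axes) for all 12 groups; each point is 1 library, and each bar the mean of 3. The ratio of Itgax to Itgam is lowest in KO TP cells of the subset groups (mean 0.514) and reaches 1.60 in WT TN cells. Itgb2 to Itgb1 has a mean of 0.500 in the tumour group. Bars of different tables are not compared by a test.

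Over the 18 subset libraries, the members with the widest range of group means were Itga1 (2.26 on the log2 scale), Itgax (1.24) and Itgb7 (0.92). Among the genes whose log2 level ran most like Itgax over these libraries were Cmya5 (Pearson r = 0.96) and Rassf2 (0.88). Those most like Itga1 were Abcb1a (0.89), a drug efflux pump, Gramd3 (0.89) and Klrb1b (0.88), an inhibitory NK receptor. Those most like Itgb7 were Ifi213 (0.91), Septin11 (0.90) and Crybg1 (0.89). Among the members, Itgax ran opposite to Itga1 (r = -0.90) and to Itgam (-0.78), and with Itga2 (0.86), and Itgb2 ran with Itgal (0.80). These correlations describe libraries that fall into 6 sorted groups, so the groups largely set them, and the points share their scaling.

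Itga1 and Itga2 also lie next to each other, on chromosome 13, and ran in opposite directions over these libraries (r = -0.70). Their upstream bases are shown as those of the adjacent tissue-residency and circulation markers, from RefSeq's GRCm38.p6 on the minus strand (chr13:115101965-115102214 and chr13:114932101-114932350).
Itga1: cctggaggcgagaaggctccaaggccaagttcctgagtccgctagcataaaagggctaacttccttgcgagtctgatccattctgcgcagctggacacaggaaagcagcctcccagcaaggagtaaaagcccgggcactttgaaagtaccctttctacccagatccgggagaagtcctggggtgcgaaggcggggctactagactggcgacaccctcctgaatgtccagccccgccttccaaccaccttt
Itga2: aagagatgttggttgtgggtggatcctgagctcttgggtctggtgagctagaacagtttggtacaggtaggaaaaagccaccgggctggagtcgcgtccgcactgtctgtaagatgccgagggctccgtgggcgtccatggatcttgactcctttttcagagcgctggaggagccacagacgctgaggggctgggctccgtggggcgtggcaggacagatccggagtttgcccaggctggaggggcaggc
None of the 4 motifs searched occurred in either window, hence no capitals. Their GC contents were 57.6% for Itga1 and 60.8% for Itga2, against a median of 52.0% over all windows, and those of Itgam and Itgax were 49.6% each.

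Few genes that carry signals to and from integrins were called across the sorted subsets, where few genes were called at all. Of 42 listed genes of integrin activation and adaptors, 35 could be tested in the subset table. In WT cells 0 were called higher and 1 lower in TN than in TP: Rap1b, a small GTPase that switches integrins to their binding form, at 637 TPM in TP and 328 in TN (log2 -0.96 ± 0.12 SE, adjusted p = 0.000105, limma). It was also the 1 called gene between TN and SP (-0.75, adjusted p = 0.00532), and between KO TN and KO TP (427 and 634 TPM, -0.57, adjusted p = 0.0309). The median of the list in WT TN against TP was -0.06. In that contrast 1.31% of all tested genes were called. There 11 of the 35 had an unadjusted p under 0.05, against 12.5% of all tested genes. None of the 35 was called by limma between genotypes, and 5, 6 and 5 of them had an unadjusted p under 0.05, given for TP, SP and TN in that order. Of the 12 listed ligands 4 could be tested, and Thy1, a surface protein bound by several integrins, was lower in WT TN than TP cells (50.4 and 221 TPM, log2 -2.13, adjusted p = 0.000626). In TP cells Thy1 was lower in KO than in WT mice (-1.31, adjusted p = 0.0345). None of the 9 listed regulators of integrin genes, such as Runx3 and Tgfbr2, was called in any of the 10 subset contrasts by limma, with at most 3 at an unadjusted p under 0.05.

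Of the lists of tissue-like and circulating NK genes, which hold Itga1 and Itga2, 13 genes each were tested in the subset table. From TP to TN in WT mice 4 circulating genes rose and 4 fell. Klrg1, an inhibitory receptor of mature cells (-2.63, adjusted p = 3.41e-09, limma), and the chemokine receptor Cx3cr1 (-2.23, 3.94e-06) were lower, and Eomes (0.73, 4.82e-05) and S1pr1 (1.05, 0.000152) higher. Beside Itga1, the tissue-like genes called were Rgs1, lower (-1.32, 0.00983), and Ctla2a, higher (0.96, 6.06e-05). In KO mice 2 circulating genes rose and 3 fell, among them Klrg1 (-1.65, 2.02e-06), Ly6c2 (-1.21, 0.000182) and Cx3cr1 (-1.57, 0.000316), and Ctla2a was higher (0.92, 0.000150) beside the lower Itga1.

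Steps involving SP cells called fewer of these genes. In WT mice SP exceeded TP in Klra8 (0.85, adjusted p = 0.0103, limma) and was below it in Klrg1 (-0.84, 0.0104), with no tissue-like gene called and 4 at an unadjusted p under 0.05. WT TN differed from SP in Klrg1 (-1.79, 2.68e-06), S1pr1 (0.99, 0.00121), Cx3cr1 (-1.53, 0.00121), Ly6c2 (-0.82, 0.0192), Ctla2a (0.87, 0.00108) and Rgs1 (-1.21, 0.0423). In KO mice SP differed from TP in Klrg1 (-0.78, 0.0201), Ctla2a (0.70, 0.00559) and Il7r (-2.69, 0.0373), and TN from SP in Klrg1 (-0.88, 0.0217). Between genotypes S1pr1 was higher in KO cells of all 3 subsets, with differences of 1.61 for TP (adjusted p = 1.23e-06), 1.77 for SP (3.12e-07) and 0.68 for TN (0.0171). Klrg1 was lower, with -1.61 for TP (2.25e-06), -1.55 for SP (4.00e-06) and -0.63 for TN (0.0450), and Ctla2a was higher in KO SP cells (0.53, 0.0188).

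Ionomycin for 22 h went with a different integrin profile of cultured splenic NK cells, though each call held in a minority of alternatives. Of the 9 members that could be tested, 3 were called, 1 higher and 2 lower, where 2.91% of all tested genes were called. Itga4 rose, and Itgb2 and Itga2 fell. These calls held in 6, 4 and 3 of 13 alternatives, in that order. The groups did not overlap for 6 members, against 20.1% of tested genes, and 6 members had an unadjusted p under 0.05, against 15.1% of tested genes.

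Itga4 was at 112, 203 and 242 TPM with vehicle and 449, 572 and 482 with ionomycin. Every treated library was above every vehicle library, and the change was 2.81-fold (log2 1.49 ± 0.29 SE, adjusted p = 0.0344, limma). Itga4 was thereby the highest member in ionomycin-treated cells. Its upstream bases are shown because it was the only called member that rose, on the plus strand of GRCm38.p6 from RefSeq (chr2:79255176-79255425), with matches to the 4 motifs in capitals.
Itga4: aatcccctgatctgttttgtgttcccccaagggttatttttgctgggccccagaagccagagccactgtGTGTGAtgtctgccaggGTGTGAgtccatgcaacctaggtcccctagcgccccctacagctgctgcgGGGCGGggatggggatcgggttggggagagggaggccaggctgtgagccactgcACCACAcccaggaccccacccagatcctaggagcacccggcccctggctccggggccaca
This window held 2 TCACAC, 1 TGTGGT and 1 GGGCGG, on either strand.

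Itgb2 was at 754, 663 and 448 TPM with vehicle and 302, 267 and 259 with ionomycin, without overlap. It was 2.20-fold lower (log2 -1.14 ± 0.23 SE, adjusted p = 0.0387, limma). Itga2 was at 47.2, 139 and 85.3 TPM with vehicle and 27.4, 15.0 and 18.3 with ionomycin, also without overlap, and was 4.06-fold lower (-2.02 ± 0.43 SE, adjusted p = 0.0449). All 3 calls were lost with no filter on low genes or no trended prior, and without ionomycin replicate 1, 2 or 3 or vehicle replicate 2. That of Itgb2 was also lost under median-of-ratios (adjusted p = 0.0798) and quantile (0.0511) scaling, and that of Itga2 with a pseudocount of 0.1 (0.0504), with the replicate block (0.0670) and without vehicle replicate 3 (0.0644). Without vehicle replicate 1, 5 members were called: Itgb2, Itgb7, Itga2, Itga4 and Itgam.

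The remaining members varied widely between vehicle libraries. Itgb7 was at 57.1, 101 and 222 TPM with vehicle and 37.3, 14.1 and 31.0 with ionomycin (log2 -2.05, adjusted p = 0.0877). Itgax was at 68.2, 160 and 169 TPM with vehicle and 232, 401 and 367 with ionomycin (1.40, adjusted p = 0.101). Itga1 was at 2.27, 3.30 and 3.50 TPM with vehicle and 0, 0.310 and 0.650 with ionomycin (-1.62, adjusted p = 0.294). None of these 3 overlapped and none was called.

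Itgam was at 66.4, 182 and 239 TPM with vehicle and 69.7, 73.8 and 91.2 with ionomycin, and overlapped (log2 -0.87, adjusted p = 0.411). Itgal (-0.29, adjusted p = 0.559) and Itgb1 (-0.23, 0.681) were at 408 to 568 and 334 to 518 TPM with vehicle. They were at 393 to 409 and 323 to 378 TPM with ionomycin. Itgae was under 1 TPM in all 6 libraries, with 2 vehicle libraries listed at 0, and was not tested.

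Within libraries, the balance of subunits differed in the same sense. The share of Itgax in beta2 alpha-chain RNA was 16.1% with vehicle and 40.0% with ionomycin, and Itgax to Itgam was 0.870 ± 0.160 and 4.26 ± 1.07. Itgb7 to Itga4 was 0.641 and 0.0573. Itgb2 to Itgb1 was 2.26, 1.54 and 0.865 in the vehicle libraries, and 0.774 on average with ionomycin.

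Other measures moved with these groups. The NK marker sum was 13995, 13646 and 7557 TPM with vehicle and 7206, 6284 and 5616 with ionomycin. Ifng, the main NK cytokine, was at 27589, 2522 and 82.4 TPM in the vehicle libraries, and the neutrophil marker sum was 0, 2.19 and 377 TPM there and 0, 0.700 and 120 TPM with ionomycin, with 6 and 5 of 7 markers above 0 and Ly6g at 0 in both. Their part in the integrin differences was not tested. With both libraries numbered 3 left out, a setting chosen after the data were seen, no member was called.

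Among the genes that work with integrins, more were called lower than higher with ionomycin. Of 36 tested activation and adaptor genes 1 was called higher, Rapgef1, an exchange factor for Rap1 (142 TPM with vehicle and 353 with ionomycin, log2 1.32, adjusted p = 0.0144, limma), and 5 lower. Those lower included Skap1, an adaptor of the LFA-1 pathway (-1.80, adjusted p = 0.00515), Dok2 (-1.46, 0.0255) and Fermt3, the kindlin of blood cells that activates beta2 integrins (-1.29, 0.0259). The list's median was -0.35, against 0.00 over all tested genes. Runx3, a transcription factor of NK cell maturation, was at 365 TPM with vehicle and 92.2 with ionomycin (-1.98, adjusted p = 0.00572), and the TGF-beta receptor Tgfbr2 was also lower (-1.38, 0.0410). Icam1, a ligand of LFA-1, was at 242 TPM with vehicle and 31.7 with ionomycin (-2.76, adjusted p = 0.0121). Of the tissue-like list 16 genes were tested, and Rgs1 (2.54, 0.00144) and Cd160 (5.15, 0.0136) rose while Ctla2a fell (-3.15, 0.0197). Of the circulating list Klrg1 (-4.23, 0.0197) and Ly6c2 (-5.04, 0.0346) fell beside Itga2.

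**Figure D4:**
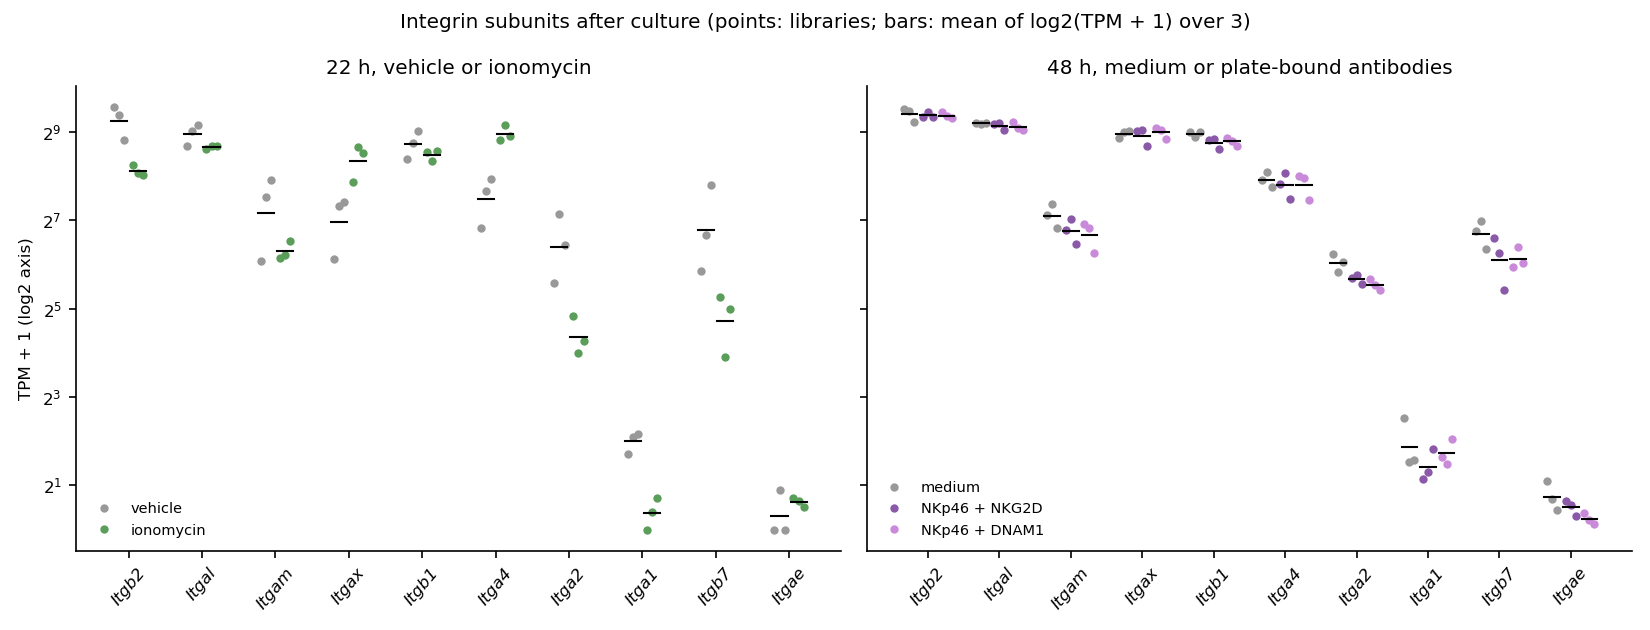
Levels of the integrin genes in cultured NK cells (TPM, vertical axes), for vehicle and ionomycin at 22 h and for medium and the antibody pairs at 48 h; each point is 1 library. Itga4 lies at 449 to 572 TPM with ionomycin, above the 112 to 242 TPM of vehicle, and the antibody groups lie near those of medium for most genes.

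Antibodies to activating receptors left no called change in any of the 9 tested members. For this table the groups are those in the deposited column names, which for 6 of 9 samples differ from the sample titles. With antibodies to NKp46 and NKG2D 0 members were called by limma (0.431% of tested genes), and 2 had an unadjusted p under 0.05. With antibodies to NKp46 and DNAM-1 it was 0 again (0.782% of tested genes), with 1 at an unadjusted p under 0.05. Between the antibody pairs it was 0 (0.0146% of tested genes), and none had an unadjusted p under 0.05.

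Itga2 had the lowest p with both pairs. It was at 74.9, 55.9 and 65.5 TPM in medium, 51.1, 53.3 and 45.8 with NKp46 and NKG2D antibodies, and 49.6, 45.3 and 42.0 with NKp46 and DNAM-1 antibodies. Both antibody groups were below all medium libraries, by -0.37 (adjusted p = 0.288) and -0.50 (0.139) on the log2 scale. The antibody pairs differed from each other by -0.13 (95% interval -0.47 to 0.21). Itgb1 was at 509, 474 and 512 TPM in medium and 447, 455 and 389 with NKp46 and NKG2D antibodies, without overlap (-0.21, adjusted p = 0.305).

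The beta2 genes lay close together across these 3 groups. Itgb2 was at 735, 712 and 598 TPM in medium, 641, 704 and 646 with NKp46 and NKG2D, and 694, 651 and 636 with NKp46 and DNAM-1 antibodies. Itgax was at 462, 513 and 515, then 520, 523 and 412, then 545, 529 and 458 TPM. Itgal spanned 526 to 595 TPM over the 9 libraries and Itgam 76.2 to 163. Itgax exceeded Itgam in all 9 libraries, with ratios of 3.69 in medium, 4.51 and 5.08 on average.

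The low members were low in each of the 3 groups. Itga1 was at 4.80, 1.88 and 1.98 TPM in medium and 1.20 to 3.12 TPM with antibodies. Itgae was at 0.10 to 1.13 TPM and was not tested. Itga4 spanned 175 to 274 TPM and Itgb7 42.2 to 125 TPM over the 9 libraries. Of the other integrin genes, Itgb3, the beta chain of the vitronectin receptor, was called with both pairs, from 16.6 TPM in medium to 39 TPM (log2 1.19 ± 0.20 SE, adjusted p = 0.0377, limma) and 42.4 TPM (1.32 ± 0.20, 0.0222). Il7r (-2.20, adjusted p = 0.00974, and -1.86, 0.0231), Cd69 (-1.53, 0.0171, and -1.31, 0.0337) and Ly6c2 (-1.06, 0.00152, and -1.12, 0.00133) fell with the NKG2D and the DNAM-1 pair in that order.

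In NK cells from MC38 B2m-/- tumours the beta1 chain headed the list. Itgb1 was at 853, 765 and 945 TPM, above Itgal at 440, 438 and 419 and Itgb2 at 427, 380 and 476 TPM, which overlapped. The ratio of Itgb2 to Itgb1 was 0.500 ± 0.00362 (SD, n = 3). Levels were not tested against those of spleen, since the tables were scaled separately and the tumour table holds no splenic group.

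Below these came a group of 4 members with overlapping values. Itgax was at 219, 215 and 166 TPM, Itgam at 194, 209 and 195, Itgb7 at 211, 185 and 176, and Itga4 at 202, 185 and 175 TPM. Itgax to Itgam was 1.00 ± 0.141, and Itgb7 to Itga4 was 1.01. Itgae was listed at 0.620, 0 and 0 TPM.

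Both collagen receptor chains were present in tumour NK cells. Itga2, the marker of circulating cells, was at 131, 72.2 and 82.8 TPM, and Itga1, the marker of tissue-like cells, at 22.5, 15.7 and 18.8 TPM. Itga2 exceeded Itga1 in each library, with ratios of 5.82, 4.61 and 4.40. Within the subset table, where Itga1 was above 0, the ratio was 41.7 to 54.4 in WT TP, 130 to 201 in WT SP and 197 to 241 in WT TN cells. It was 23.7 to 30.5 in KO TP, 44.7 to 70.9 in KO SP and 160 to 228 in KO TN cells. With vehicle it was 20.8 to 42.2, and with ionomycin, where Itga1 was above 0, 28.1 to 48.4. In the antibody table it was 15.6 to 33.1 in medium, 18.2 to 42.6 with NKp46 and NKG2D and 13.5 to 25.0 with NKp46 and DNAM-1 antibodies. These ranges describe each table on its own. The tables were scaled separately, the subset table holds other rows, and the tumour table holds no splenic group, so no difference between tables is read from them.

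**Figure D5:**
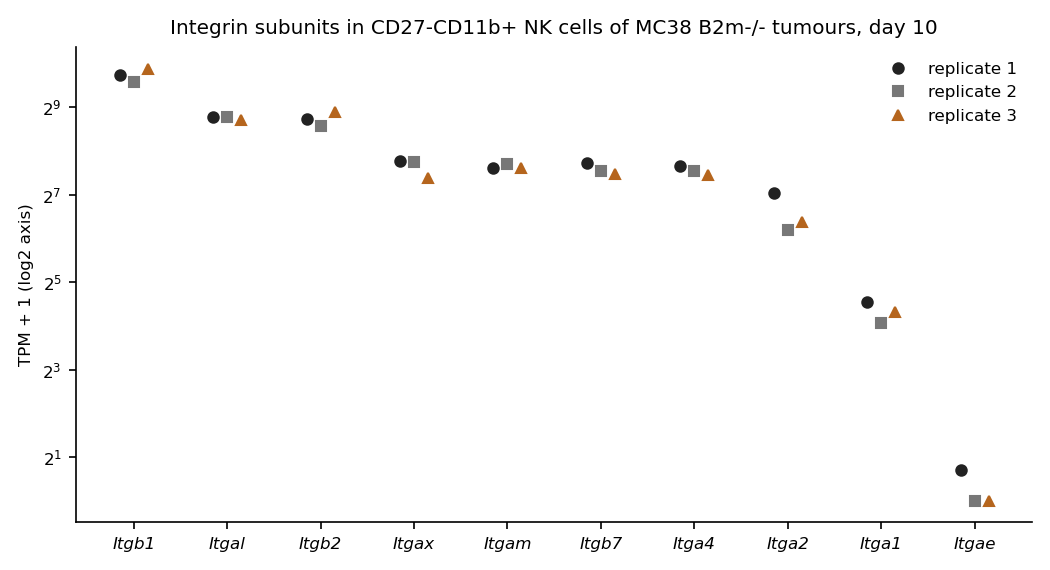
Levels of the 10 integrin genes in NK cells of MC38 B2m-/- tumours at day 10 (TPM + 1, log2 axis), ordered by mean; each symbol is 1 replicate. Itgb1 is highest in all 3 libraries, and Itga1 lies at 15.7 to 22.5 TPM, below Itga2 and above Itgae.

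Other genes of both states were present beside them. Of the genes linked to tissue-like NK cells and type 1 innate lymphoid cells, Ctla2a had a mean of 2317 TPM, Rgs1 1874, Rgs2 638 and Cd69, which holds lymphocytes in tissue, 402 TPM. The homing receptor Cxcr6 was at 1.21 TPM, Il7r at 3.28, Cd200r1 at 0.563, and Gpr55 was listed at 0. Of those linked to circulating NK cells, Klra8 was at 785 TPM, Eomes 623 and Klf2 256 TPM, while S1pr5, which guides exit from tissue, was at 14.9 and Cx3cr1 at 7.38 TPM. Markers from both lists were thus present in the same bulk libraries, in which mixed cells and cells that carry both cannot be told apart.

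All 6 fibroblast markers were above 0 in the tumour table, and they summed to 39, 1073 and 862 TPM in tumour replicates 1, 2 and 3, and the macrophage sum was 91.2, 41.6 and 39.9 TPM. Fibroblasts express Itgb1 and Itga1 too. The part of such RNA in the levels of Itgb1 and Itga1, given above for the same replicates, was not tested. Fn1, the ligand fibronectin, was at 48.5, 874 and 656 TPM in the same libraries. NK markers summed to 9994, 9840 and 10612 TPM.

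Some of these gene models share sequence or ground with others, which can shift reads between them. Of all stretches of 50 bases in Itgam transcripts (GENCODE M21), 66.34% also occurred in Gm49368, an overlapping model on the same strand. Gm49368 was listed at 0 to 18.8 TPM in the ionomycin, antibody and tumour tables and was not listed in the subset table. For Itgax 8.02% were shared, with Itgad, for Itga1 3.27% and for Itgb2 1.05%. Itga1 overlaps Pelo (3.51 to 22.1 TPM over all libraries) on the same strand, Itga4 overlaps Cerkl and Itgae overlaps Haspin on the opposite strand. Itga1 also overlaps the model Gm49395 on the same strand and the antisense model Gm10734. Whether reads were counted by strand is not given in the sources used here, which bears on the overlaps on opposite strands. Itga1 and Pelo share a strand, so counting by strand would not part them. The low levels of Itga1 and Itgae are the least certain of the set.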

How the data were processed

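Expression was measured by RNA-seq in 36 mouse NK samples. The authors deposited 4 TPM tables; STAR, RSEM and GRCm39 are named in the submitters' processing notes, and poly(A) capture in the labels' kit. No versions of these tools are given in the sources used here. Tables were scaled separately and carry 3 batch dates (subsets; antibodies; ionomycin and tumour together), so tests stayed within a table.

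From the TPM values, log2(TPM + 1) was fitted per table with limma 3.58.1 (R 4.3.3, trended prior, 1 mean per group), over 12018, 14372 and 13689 genes of the subset, ionomycin and antibody tables with a mean of at least 1 TPM. In all, 14 contrasts were tested two-sided, with Benjamini-Hochberg adjustment within each. The script was tested on simulated data. An exact permutation test of 3 against 3 cannot go below p = 0.1 and was not used. TPM keep no depth, so no counting error is given.

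The members and lists were chosen with earlier results of these data known. All members are described; tests are printed for members called or with an unadjusted p under 0.05, and listed genes are named when called, at most 4 per list and contrast. A gene that these rules would name is not reported here. Alternatives were another pseudocount, no filter, other scalings, other fits, a replicate block, the title grouping of the antibody samples, and leaving out each library.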

Additional observations from a re-analysis of the deposited data

How the results depend on the processing

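The direction of every called member was the same in the alternatives run, but several counts of called members were not. Fitting only the compared groups left 1 called member for WT TN against TP, 0 for WT TN against SP, 1 for KO TN against TP, and 0 for KO SP against TP and for KO against WT in TP and in SP. Without the trended prior, 0 were called for WT TN against SP, KO SP against TP, KO against WT in TP, KO against WT in SP, and ionomycin. Without the filter on low genes, 0 were called for WT TN against SP, KO SP against TP and ionomycin. A pseudocount of 0.1 left 1 for KO TN against TP. Median-of-ratios scaling gave 2 for WT TN against SP and 1 for KO against WT in TN. Quantile scaling gave 1 for KO against WT in TP, 0 in SP and 1 in TN. With 1 library left out at a time, the counts ran from 3 to 4 for WT TN against TP, 0 to 1 for WT TN against SP, 1 to 1 for KO TN against TP, 0 to 0 for KO SP against TP, 0 to 3 for KO against WT in TP, 0 to 1 in SP, and 0 to 5 for ionomycin. Leaving out both libraries numbered 3 gave 0 for ionomycin.

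A replicate block gave 2 called members for WT TN against SP and 1 for KO against WT in TN. It kept 4 for WT TN against TP, with Itgam (adjusted p = 0.0289) in place of Itga1 (0.0663). It kept 3 for ionomycin, with Itgax (0.0218) in place of Itga2 (0.0670). It gave 3 for KO TN against TP and 3 for KO against WT in TP. The mean correlation of deviations was 0.010 for same-numbered samples and -0.0052 for others in the subset table, 0.062 and -0.031 in the ionomycin table, and 0.064 and -0.032 in the antibody table. It was over 0.1 for 0 of 18, 1 of 3 and 1 of 9 same-numbered pairs. Correlations this weak cannot decide whether samples of a number share a mouse, although they were higher for same-numbered samples in each table. The main tests treated the samples as unpaired, and the block is the alternative should they be paired. Among all genes called for KO against WT in TP, 61.8% were higher, and 50.3% under median-of-ratios scaling. For the NKp46 and DNAM-1 antibodies it was 36.4%, and 47.6% under quantile scaling. With the antibody samples grouped by title, 0 members were called in each contrast by limma, and Itga2 differed by -0.16 and -0.19.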

Other observations

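Of 16 other integrin subunits, 9 were tested in the subset table, and limma called none in its 10 contrasts, with at most 3 at an unadjusted p under 0.05. Itgad, the remaining partner of Itgb2 and a neighbour of Itgax, was at 46.6, 37.2 and 23.7 TPM in WT TN cells. Its mean over all subset libraries was 20.6 TPM. Tumour NK cells carried other matrix receptors: Itga5, the fibronectin receptor chain, was at 74.2, 136 and 80.8 TPM, Itgav at 52.4, 61.0 and 19.1 TPM and Itgb3 at 44.4, 33.9 and 28.5 TPM. Itgb5 was at 1.35, 24.2 and 34.7 TPM, lowest in the tumour library with the lowest fibroblast marker sum. Madcam1, the gut ligand of the Itga4 and Itgb7 pair, was listed at 0 in all libraries. Cdh1, the E-cadherin ligand of the Itgae and Itgb7 pair, had a mean of 2.95 TPM in the tumour libraries.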
